A study of Mus musculus with 5 samples.

Results

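The BCL2 family decides whether the mitochondria of a stressed cell release the proteins that start apoptosis. Its pro-survival members hold the pore-forming effectors in check, and the BH3-only members, named for the short domain that all family members share, bind the pro-survival proteins or activate the effectors directly. In the heart after infarction, cells of the damaged wall, endothelial cells among them, are under low oxygen, loss of survival signals and inflammation, all of which act on BH3-only genes. The 10 genes described here were taken from the deposited table by symbol: the pro-survival Bcl2l1, Bcl2 and Mcl1, the effectors Bax and Bak1, and the BH3-only Bcl2l11, Bbc3, Pmaip1, Bid and Bad. All 10 were found among 17638 genes, and all 10 passed the filter of a mean normalised count of at least 10, as did 14339 genes in all. Bcl2l1 was picked for its Tbx1cko values, so its genotype difference is described without a test, and the other 9 were in the set by name.

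Polyadenylated RNA was sequenced from CD31-positive heart cells of 2-month-old mice on a C57BL/6 background, 5 days after myocardial infarction. There were 2 libraries of a conditional knockout labelled Tbx1cko, described by the series as endothelial, and 3 control libraries that had undergone the same infarction. The labels name no Cre line, induction, deleted stretch of Tbx1 or control alleles. Nor do they say that each library is a different mouse, and the p-values below cover the spread among these libraries alone. The values are read counts divided by a size factor of the library, called normalised counts below.

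Tbx1, which encodes the deleted T-box transcription factor, had 18.3 and 17.3 normalised counts in the Tbx1cko libraries and 64.4, 72.7 and 69.6 in control replicates 1 to 3, so the values go with the labels, although reads outside the deleted stretch would check nothing. The reads behind the table came to 17769729 and 16061666 in Tbx1cko and to between 14689782 and 18617284 in control. Of the endothelial genes, Pecam1 had 38311 and 33715 normalised counts in Tbx1cko and 38138, 43313 and 37541 in control, and Cdh5 had 46531 and 45379 in Tbx1cko and 49622, 62849 and 47737 in control. Genes of macrophages, mural cells, platelets and red cells were measured as well. Control replicate 2 differed from all other libraries: it was the highest or lowest of the 5 libraries for 82.6% of tested genes, and its deviation followed the GC content of the transcripts (Spearman rho 0.815 across 13771 genes, a description, since the genes share the libraries). The members' results are therefore given with and without it. In bulk RNA of this kind, fewer cells of a type and less RNA per cell cannot be told apart.

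Upstream sequence is shown for Mcl1 and Bcl2l11, the only 2 members whose groups did not overlap with all 5 libraries, and for Bcl2l1, chosen for its values. Each run is the 250 bases before the RefSeq start site nearest to the annotated start of the gene, in GRCm38.p6, 5′ to 3′ on the strand of the gene: chr3:95658471-95658720, plus strand, for Mcl1; chr2:128125788-128126037, plus strand, for Bcl2l11; and chr2:152831729-152831978, minus strand, for Bcl2l1. On the same build, GENCODE places Mcl1 at chr3:95658788-95663176 on the plus strand, Bcl2l11 at chr2:128126038-128162547 on the plus strand and Bcl2l1 at chr2:152780668-152831728 on the minus strand. Capitals mark matches, on either strand, to the GC box GGGCGG or the FOXO site GTAAACA.
Mcl1: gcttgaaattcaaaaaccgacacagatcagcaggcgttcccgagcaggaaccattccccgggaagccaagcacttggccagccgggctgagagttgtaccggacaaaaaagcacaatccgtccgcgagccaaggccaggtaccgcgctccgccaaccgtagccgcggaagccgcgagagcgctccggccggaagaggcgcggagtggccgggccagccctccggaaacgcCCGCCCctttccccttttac
Bcl2l11: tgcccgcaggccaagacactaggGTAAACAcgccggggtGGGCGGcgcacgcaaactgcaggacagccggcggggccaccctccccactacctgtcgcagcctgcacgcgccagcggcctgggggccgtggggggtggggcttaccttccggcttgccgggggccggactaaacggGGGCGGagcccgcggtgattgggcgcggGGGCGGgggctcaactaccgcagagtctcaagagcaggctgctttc
Bcl2l1: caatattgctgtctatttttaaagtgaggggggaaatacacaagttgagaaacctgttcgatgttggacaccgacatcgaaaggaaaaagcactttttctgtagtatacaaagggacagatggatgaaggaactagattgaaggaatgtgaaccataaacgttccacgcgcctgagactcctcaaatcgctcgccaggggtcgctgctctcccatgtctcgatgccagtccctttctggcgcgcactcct

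The 3 upstream runs differed in what the search found. The Bcl2l11 run held 3 GC boxes and 1 FOXO site, the Mcl1 run held 1 GC box, and the Bcl2l1 run, with a GC content of 47.6% against 72.0% for Bcl2l11 and 64.4% for Mcl1, held no match to any motif searched. FOXO factors are known activators of Bcl2l11 transcription. GC boxes occurred in 10 of the 15 windows that RefSeq lists for 9 of the members, and FOXO sites in 2 of them, the other in a window of Bbc3. Over all genes, 32.7% and 3.17% of 32851 windows of the same length held them. The T-box half-site AGGTGTGA, the letters bound by factors of the Tbx1 type, occurred in 1.12% of all windows and in 0 of the 15. The STAT letters TTCNNNGAA (7.02% of windows), the cyclic AMP response element TGACGTCA (1.55%) and the AP-1 letters TGANTCA (6.75%) were likewise found in 0 of the 15. A match is a description and not a site, and no match says only that these letters are not in these windows.

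Per kilobase of exon, the scale on which genes can be compared, Mcl1 was by far the most abundant member. Mcl1 encodes a pro-survival protein that is made and degraded quickly. Its level was 4770 ± 428 normalised counts per kb in Tbx1cko (SD, n = 2) and 3403 ± 1498 in control (SD, n = 3), and its mean over libraries stood at the 98.9th percentile of tested genes. Bcl2l1 followed at 602 ± 103 per kb in Tbx1cko and 434 ± 168 in control, then Bak1 at 373 ± 85.3 in Tbx1cko and 347 ± 77.4 in control, and Bax at 249 ± 46.3 in Tbx1cko and 325 ± 103 in control. In control libraries the values per kb of Bcl2l1, Bak1 and Bax overlapped across libraries. Within each library, Bcl2l1 was above Bax. Bak1 was just above Bcl2l1 in control replicate 1, and Bax was just above Bak1 in control replicate 2. At the low end were Bcl2, at 56.3 ± 12.4 per kb in Tbx1cko and 46.3 ± 9.45 in control, and Bid, at 37.7 ± 6.34 in Tbx1cko and 37.8 ± 2.91 in control. Bcl2 is the founding member of the family.

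Bbc3, Bcl2l11, Bad and Pmaip1 lay between these ends, with means per kb in Tbx1cko of 167 ± 42.9, 210 ± 15.8, 136 ± 0.550 and 181 ± 32.0 (SD, n = 2). Their means per kb in control were 284 ± 145, 251 ± 23.7, 160 ± 52.9 and 142 ± 81.5 (SD, n = 3). In control, Bbc3 overlapped with Bcl2l11 and Bad with Pmaip1, while every Bcl2l11 value lay above every Bad value, as it did in Tbx1cko. As a share of the summed level per kb of all 10 genes, Mcl1 made up 69.4% and 71.2% in Tbx1cko and 69.6%, 39.9% and 71.5% in control replicates 1 to 3. The low share in control replicate 2 came with larger shares of Bbc3 (10.6%), Bax (10.6%) and Bak1 (10.4%) in that library. Bcl2l1 made up 8.22% and 9.48% in Tbx1cko and 5.04%, 14.8% and 6.19% in control replicates 1 to 3.

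**Figure D1:**
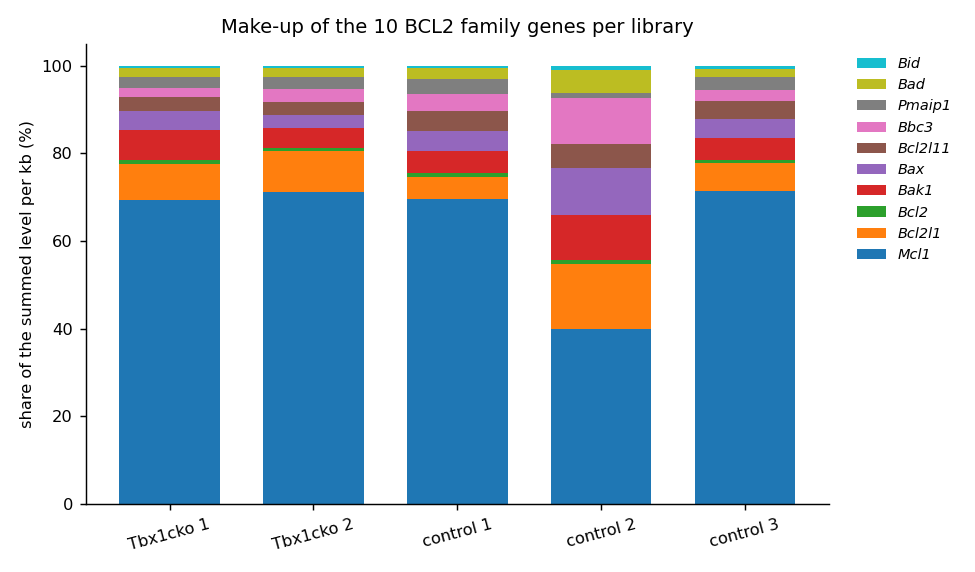
Stacked bars give the share of each of the 10 genes in their summed level per kilobase of exon (%, vertical axis) in each library (horizontal axis). Mcl1 holds 69.4% to 71.5% in 4 libraries and 39.9% in control replicate 2.

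Between genotypes, 0 of the 9 members chosen by name passed an adjusted p of 0.05 in limma over all genes, and 0 reached an unadjusted p under 0.05. With edgeR and DESeq2 on the recovered reads, 0 of the 9 passed as well. The background was 0 of 14339 genes in limma at the adjusted threshold (0%), 250 at an unadjusted p under 0.05 (1.74%), 0 in edgeR (0%) and 4 in DESeq2 (0.0279%). By direction, 0.37% of genes were higher and 1.37% lower in Tbx1cko at an unadjusted p under 0.05. Without control replicate 2, limma called 0 of the 9 members and 0.0209% of all genes, 0.00697% higher and 0.0139% lower. The deleted gene Tbx1, at a log2 difference of -1.89, did not pass either (limma adjusted p = 0.762, and 0.214 without control replicate 2). Not passing therefore does not show that a member was unchanged. The groups did not overlap for 2 of the 9, Mcl1 above and Bcl2l11 below, against 28% of all tested genes, 14.2% above and 13.9% below. That count is near the background. The median log2 difference of the 9 was -0.01, with 4 above and 5 below 0, beside a median of 0.03 and 52.4% above 0 over all tested genes.

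**Figure D2:**
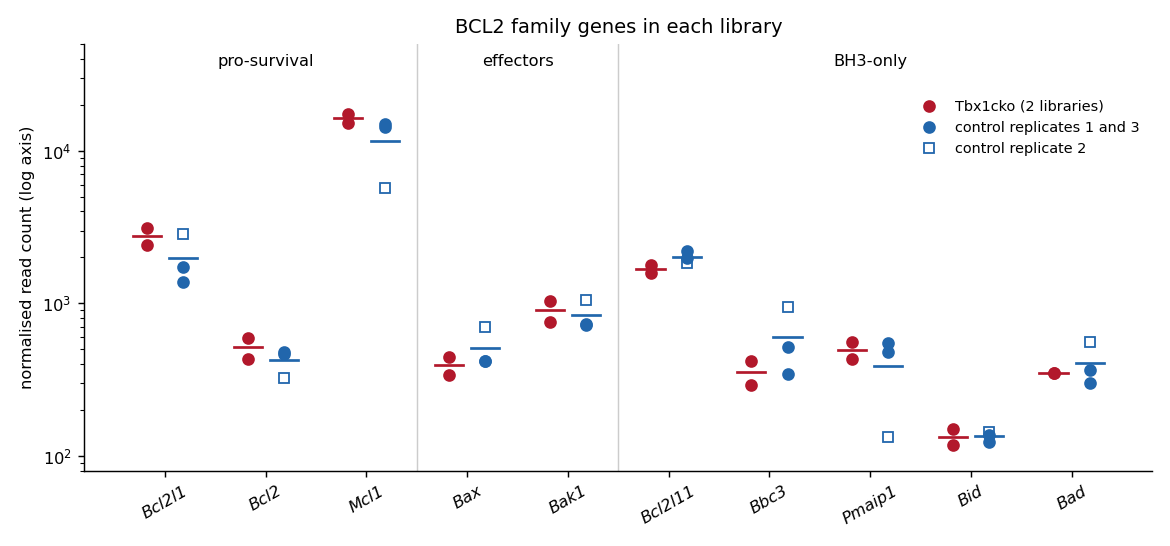
Points are normalised read counts (log axis) of each gene in 2 Tbx1cko and 3 control libraries, bars are group means, and the open square is control replicate 2. For Mcl1 the Tbx1cko libraries lie above and for Bcl2l11 below all control libraries, and control replicate 2 is an extreme for 7 of the 10 genes.

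Bcl2l1 encodes BCL-XL, which holds BAX and BAK inactive and on which platelets and red cell precursors are known to depend; a shorter splice form promotes death, and gene counts do not separate the forms. Its normalised counts were 2428 and 3097 in Tbx1cko and 1386, 2859 and 1729 in control replicates 1 to 3. The Tbx1cko libraries lay above control replicates 1 and 3, and control replicate 2 lay between them, so the groups overlapped. The means were 2763 ± 473 (SD, n = 2) in Tbx1cko and 1992 ± 770 (SD, n = 3) in control, a log2 difference of 0.53, with no test because this gene was picked for these values. Against control replicates 1 and 3 alone, at 1558 ± 243 (SD, n = 2), the log2 difference was 0.82 and the ratio of means was 1.77. A loess correction for GC content gave 0.78 with all libraries and 0.89 without control replicate 2, and over all 15 alternatives the log2 difference lay between 0.30 and 0.89.

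Markers of blood cells, some of which use BCL-XL, were summed beside these values. The 8 platelet genes, all measured in every library, summed to 4704 to 5290 normalised counts in Tbx1cko and 2310 to 3967 in control, with Pf4 at 2923 and 2726 in Tbx1cko and 1049, 1625 and 1888 in control. The red cell list, with 7 of 8 genes in the table, summed to 4906 to 17629 in Tbx1cko and 6913 to 19534 in control. The 10 macrophage and monocyte genes summed to 104021 to 105120 in Tbx1cko and 69923 to 110558 in control, and the neutrophil list, with 7 of 8 genes, to 1605 to 2138 in Tbx1cko and 923 to 1318 in control. The endothelial list of 10 genes summed to 163018 to 173101 in Tbx1cko and 175014 to 231506 in control. The platelet, neutrophil and endothelial sums did not overlap between the groups. Sums of the mural and lymphatic endothelial lists, given with the processing below, did not overlap either and were lower in Tbx1cko. Of the mural genes 8 of 9 were lower by log2 difference, and of the lymphatic endothelial genes 7 of 7. By log2 difference with all libraries, 6 of the 8 platelet genes were higher in Tbx1cko and 2 lower. Pf4 was the most abundant of them, so it weighs most in that sum. All 7 tested neutrophil genes were higher, and of the endothelial genes 2 were higher and 8 lower. The part of these cell types in the Bcl2l1 values was not tested.

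The genes whose pattern was most like that of Bcl2l1, by the mean absolute difference of centred log2 values over the 5 libraries, were Rbp7, Fsd2, Ccdc8, Iqcc and Adam8, at distances of 0.07, 0.08, 0.10, 0.12 and 0.12 among 11128 genes. Rbp7 encodes a retinol-binding protein and Adam8 a membrane metalloprotease of leukocytes. Rbp7 had 1597 and 2173 normalised counts in Tbx1cko and 949, 1849 and 1329 in control replicates 1 to 3, the same order of libraries as Bcl2l1. These genes were chosen for likeness over these same libraries, so a shared order is no separate result. Adam8 had 3240 and 4046 in Tbx1cko and 1620, 3086 and 2397 in control. Within the family, the nearest to Bcl2l1 was Bak1, at rank 495, and the farthest was Pmaip1, at rank 9745.

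Mcl1 had 15269 and 17338 normalised counts in Tbx1cko and 14264, 5731 and 14900 in control replicates 1 to 3. The Tbx1cko libraries were above all controls, but control replicates 1 and 3 lay just below Tbx1cko replicate 1, and control replicate 2 lay far below every other library. The log2 difference was 0.61 (SE 0.458, 95% interval -0.54 to 1.76, limma adjusted p = 0.762). Without control replicate 2 it was 0.16 (interval -0.15 to 0.46, limma adjusted p = 0.843), so that this library set most of its size. Immediate early and dissociation stress genes, 15 of 15 in the table, with none at 0, summed to 256651 and 292953 in Tbx1cko and to 423181, 628718 and 324851 in control replicates 1 to 3. Both Tbx1cko sums lay below all control sums, and the groups did not overlap for 13 of the 15 genes, each with Tbx1cko below. Across these genes the median log2 difference was -0.77, and -0.42 when control replicate 2 was left out. Their sum was highest in the library where Mcl1 was lowest. The part of these genes in the values of Mcl1 and the other members was not tested.

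Bcl2 had 596 and 435 normalised counts in Tbx1cko and 469, 324 and 478 in control replicates 1 to 3. Control replicate 2 was the lowest library and the groups overlapped, with or without it. For Bcl2 the log2 difference was 0.29 (SE 0.288, interval -0.43 to 1.01, limma adjusted p = 0.762), and 0.11 without control replicate 2. After GC correction with all libraries it was 0.01. Lymphocytes are known to carry more Bcl2 than most cells, and the sums of the 8 T and NK cell genes, 269 and 308 in Tbx1cko and 258 to 353 in control, overlapped between the groups, with Klrb1c at 0 in 1 control library.

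The effectors Bax and Bak1 form the pores of the outer mitochondrial membrane, BAX after moving there from the cytosol and BAK, the Bak1 product, from within the membrane. Bax had 444 and 340 normalised counts in Tbx1cko and 420, 700 and 418 in control replicates 1 to 3. Control replicate 2 was the highest library, and the other 2 controls lay between the Tbx1cko values. For Bax the log2 difference was -0.35 (SE 0.321, interval -1.16 to 0.45, limma adjusted p = 0.762), -0.11 without control replicate 2, and 0.12 after GC correction, where its sign was reversed.

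Bak1 had 1044 and 753 normalised counts in Tbx1cko and 733, 1050 and 721 in control replicates 1 to 3. The highest control, replicate 2, was level with Tbx1cko replicate 1, and the other controls lay below both Tbx1cko libraries. For Bak1 the log2 difference was 0.11 (SE 0.279, interval -0.59 to 0.81, limma adjusted p = 0.873), and 0.29 without control replicate 2 (interval -0.07 to 0.64). Exons of Bak1 share up to 437 bases with Ggnbp1 on the opposite strand, and because the strand setting of the counting is not given in the sources used here, reads there could have been counted for either gene.

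Bcl2l11 encodes BIM, the BH3-only protein that rises when growth factor signalling stops and that binds all pro-survival members. It had 1593 and 1772 normalised counts in Tbx1cko and 2217, 1840 and 1983 in control replicates 1 to 3. Both Tbx1cko libraries lay below all 3 controls, with a narrow gap between Tbx1cko replicate 2 and control replicate 2. The means were 1683 ± 127 (SD, n = 2) in Tbx1cko and 2013 ± 190 (SD, n = 3) in control, a log2 difference of -0.26 (SE 0.188, interval -0.73 to 0.22, limma adjusted p = 0.762). Without control replicate 2 it was -0.32 (interval -0.59 to -0.05), with an unadjusted limma p of 0.0259 and an adjusted p of 0.586, where 7.46% of all tested genes reached an unadjusted p under 0.05, 3.39% higher and 4.07% lower in Tbx1cko. The log2 difference was below 0 in all 15 alternatives, from -0.40 to -0.18, but these reuse the same libraries and are not separate checks. Control replicate 2 lay inside the range of the other libraries for this gene.

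Bbc3 encodes PUMA, a BH3-only protein induced by p53. It had 291 and 420 normalised counts in Tbx1cko and 517, 945 and 346 in control replicates 1 to 3. Control replicates 1 and 2 lay above both Tbx1cko libraries, while control replicate 3 lay between the Tbx1cko libraries. For Bbc3 the log2 difference was -0.66 (SE 0.468, interval -1.84 to 0.51, limma adjusted p = 0.762), the lowest point estimate of the 10. It was -0.28 without control replicate 2, -0.16 after GC correction and -0.04 with both. Bbc3 had the highest transcript GC content of the members, at 65.2%.

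Pmaip1 encodes NOXA, a p53-induced BH3-only protein that binds MCL1. It had 433 and 556 normalised counts in Tbx1cko and 550, 133 and 478 in control replicates 1 to 3. Control replicates 1 and 3 lay between the Tbx1cko values, and control replicate 2 was the lowest library. For Pmaip1 the log2 difference was 0.58 (SE 0.658, interval -1.07 to 2.23, limma adjusted p = 0.764), -0.06 without control replicate 2 and -0.09 after GC correction. Its GC content, 42.1%, was the lowest of the members.

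Bid, which caspase-8 cleaves to link death receptors to mitochondria, had 118 and 150 normalised counts in Tbx1cko and 123, 143 and 136 in control replicates 1 to 3. The Tbx1cko values enclosed all controls. The log2 difference was -0.01 (SE 0.253, interval -0.65 to 0.62, limma adjusted p = 0.985), and 0.04 without control replicate 2. Bad, which survival kinases such as AKT inactivate by phosphorylation, had 348 and 350 in Tbx1cko and 364, 561 and 302 in control replicates 1 to 3. The Tbx1cko libraries were nearly equal and lay between control replicates 3 and 1, with control replicate 2 above. The log2 difference of Bad was -0.18 (SE 0.319, interval -0.98 to 0.62, limma adjusted p = 0.820), and 0.07 without control replicate 2. Exons of Bid share 628 bases with Bcl2l13 and those of Bad 524 bases with Gpr137, in each case on the opposite strand, so reads there are uncertain.

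**Figure D3:**
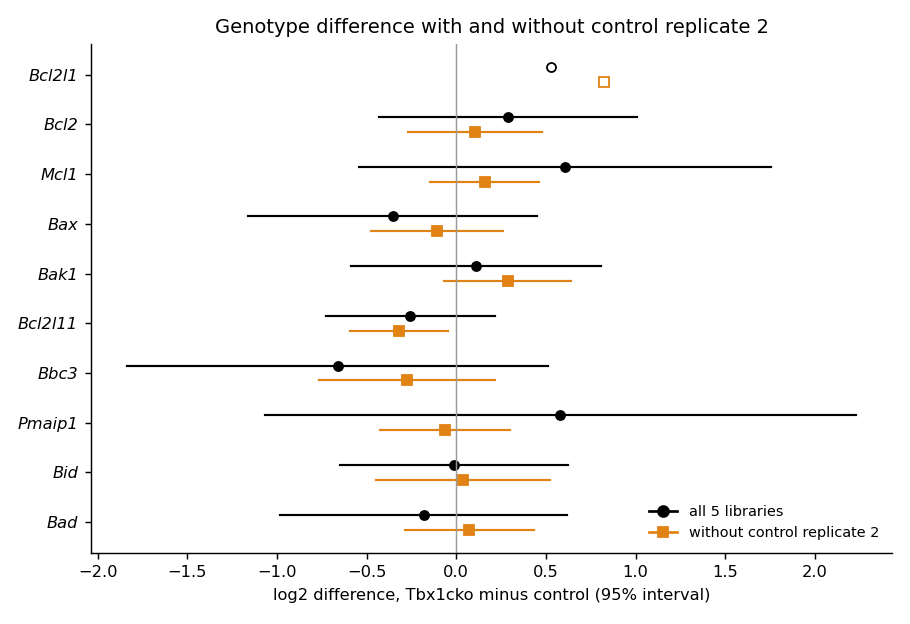
Points are log2 differences, Tbx1cko minus control, with 95% intervals from limma, for all 5 libraries (circles) and without control replicate 2 (squares); Bcl2l1, picked for its values, has open symbols and no interval. Leaving out that library narrows the intervals and moves Mcl1 to 0.16, Pmaip1 to -0.06 and Bbc3 to -0.28, while Bcl2l1 is at 0.82 and Bcl2l11 at -0.32.

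The deviation of control replicate 2 rose with GC content over the members, though not for each of them. Against the mean of the other 4 libraries, this library was lower by a log2 difference of -1.90 for Pmaip1, -0.60 for Bcl2 and -1.43 for Mcl1, whose transcripts have GC contents of 42.1%, 46.3% and 48.7%. It was higher by 1.29 for Bbc3, 0.79 for Bax, 0.72 for Bad and 0.39 for Bak1, at GC contents of 65.2%, 63.5%, 57.1% and 57.1%. It lay inside the range of the others for Bcl2l11, Bid and Bcl2l1, at deviations of -0.03, 0.13 and 0.47. The GC contents of these were 48.0%, 50.4% and 55.9%, so Bcl2l11 lay between Bcl2 and Mcl1 in GC content without their drop. Across the 10 members, which share these libraries, the deviation and GC content had a Spearman rho of 0.952. After the loess correction the deviation was within 0.38 of 0 for 9 members and was -1.18 for Mcl1, so the low Mcl1 value of that library was not removed by a GC trend fitted over all genes.

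**Figure D4:**
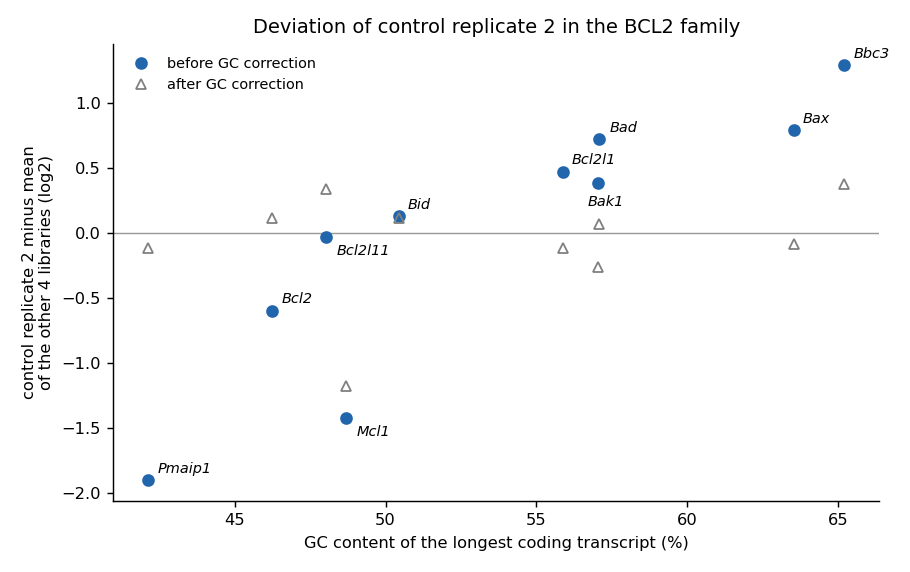
Each filled point is a member, with the GC content of its longest protein-coding transcript (%) on the horizontal axis and the log2 value of control replicate 2 minus the mean of the other 4 libraries on the vertical axis; triangles give the same after GC correction. Deviations run from -1.90 (Pmaip1, 42.1% GC) to 1.29 (Bbc3, 65.2% GC), and after correction only Mcl1, at -1.18, is farther than 0.38 from 0.

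The genotype differences ran the other way with GC content. Across the 10 members their rho with GC content was -0.673 with all libraries and -0.0788 without control replicate 2, beside -0.724 and -0.306 over all tested genes. The sign of the difference changed for 3 members, Pmaip1, Bid and Bad, when that library was left out. Without it the groups did not overlap for 3 of the 9 members chosen by name, Mcl1 and Bak1 above and Bcl2l11 below, against 37.5% of tested genes, 19.7% above and 17.8% below. Of the 9, 5 were then above 0, beside 53.3% of tested genes. The Bcl2l1 values did not overlap either, which is a description of the gene picked for them.

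Ratios of pro-survival genes to effectors, read within a library, do not depend on its size factor. They can still follow GC content, which was 46.3% for Bcl2, 55.9% for Bcl2l1 and 63.5% for Bax. The log2 ratio of Bcl2l1 to Bax per kb was 0.91 and 1.64 in Tbx1cko and 0.18, 0.49 and 0.51 in control replicates 1 to 3, without overlap. The ratio to Bak1 was 0.29 and 1.11 in Tbx1cko and -0.01, 0.52 and 0.33 in control, with overlap. Because Bcl2l1 was picked for its values, these ratios are a description. The log2 ratio of Mcl1 to Bax was 3.99 and 4.55 in Tbx1cko and 3.97, 1.92 and 4.04 in control, so that Tbx1cko replicate 1 and control replicates 1 and 3 were nearly level. That of Mcl1 to Bak1 was 3.37 and 4.02 in Tbx1cko and 3.78, 1.94 and 3.86 in control, with Tbx1cko replicate 1 below control replicates 1 and 3. Bcl2 to Bax stood at -2.11 and -2.18 in Tbx1cko and -2.38, -3.65 and -2.34 in control, without overlap, and Bcl2 to Bak1 at -2.73 and -2.72 in Tbx1cko and -2.57, -3.62 and -2.52 in control, with overlap. After GC correction the log2 genotype differences were 0.01 for Bcl2 and 0.12 for Bax, so the higher Bcl2 to Bax ratio in Tbx1cko was not kept. For the picked gene Bcl2l1 the corrected difference was 0.78. How often ratios of other gene pairs did not overlap was not computed. The log2 ratio of the 3 pro-survival genes together to both effectors was 2.82 and 3.45 in Tbx1cko and 2.99, 1.41 and 3.08 in control, and the groups overlapped.

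Other relatives of the family were described from a list of 15 genes, of which 12 were found by symbol. Bcl2l10, Bcl2l14 and Bcl2l15 were not found, and Bcl2a1b was below the filter, which left 11 tested. In limma 0 passed the threshold, with 5 higher, 6 lower and a median log2 difference of -0.10. The median turned to 0.11 without control replicate 2, with 7 higher and 4 lower, and to 0.06 after GC correction. The groups did not overlap for 2 genes above and 3 below, beside 14.2% and 13.9% of all tested genes. Bnip3l and Bnip3 encode mitochondrial proteins of the BH3 type that mark mitochondria for removal and respond to low oxygen. Bnip3l had 2298 and 2629 normalised counts in Tbx1cko and 2280, 1197 and 2270 in control replicates 1 to 3, and Bnip3 had 319 and 396 in Tbx1cko and 235, 188 and 276 in control. For both genes the Tbx1cko libraries were above all controls, by a very small margin for Bnip3l, and the log2 differences were 0.42 (SE 0.343) and 0.63 (SE 0.269), each at a limma adjusted p of 0.762. Without control replicate 2, that of Bnip3l was 0.11 and that of Bnip3 was 0.48, at limma adjusted p-values of 0.882 and 0.556.

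The 3 genes below all controls in Tbx1cko were Bok, Bik and Bcl2l13. Bok, an effector-like relative, had 719 and 729 normalised counts in Tbx1cko and 746, 1182 and 804 in control replicates 1 to 3. Bik, a BH3-only gene, had 187 and 178 in Tbx1cko and 225, 356 and 211 in control, and Bcl2l13 had 830 and 811 in Tbx1cko and 873, 937 and 858 in control. Their log2 differences were -0.30, -0.49 and -0.12, and all were closer to 0 without control replicate 2, at -0.10, -0.25 and -0.08. The pro-survival Bcl2l2, which encodes BCL-W, had 842 and 897 in Tbx1cko and 863, 1075 and 872 in control, with a log2 difference of -0.10 and of 0.00 without control replicate 2.

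Bmf, a BH3-only gene, had 382 and 612 normalised counts in Tbx1cko and 409, 366 and 289 in control replicates 1 to 3, a log2 difference of 0.46 with overlap. Bcl2l12, whose exons share 572 bases with an antisense gene, and Hrk, a BH3-only gene, had log2 differences of -0.22 and -0.20 with all libraries and of 0.21 and 0.14 without control replicate 2. The A1 genes, pro-survival members found in leukocytes, occur as near-identical copies in the mouse, so the split of reads between them is uncertain. Bcl2a1d had 156 and 107 in Tbx1cko and 172, 17.5 and 120 in control, and Bcl2a1a had 66.8 and 39.7 in Tbx1cko and 29.4, 5.52 and 42.3 in control. Both were lowest in control replicate 2, the groups overlapped, and the log2 difference was 0.84 with that library and -0.15 without it for Bcl2a1d, and 1.36 and 0.53 for Bcl2a1a.

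**Figure D5:**
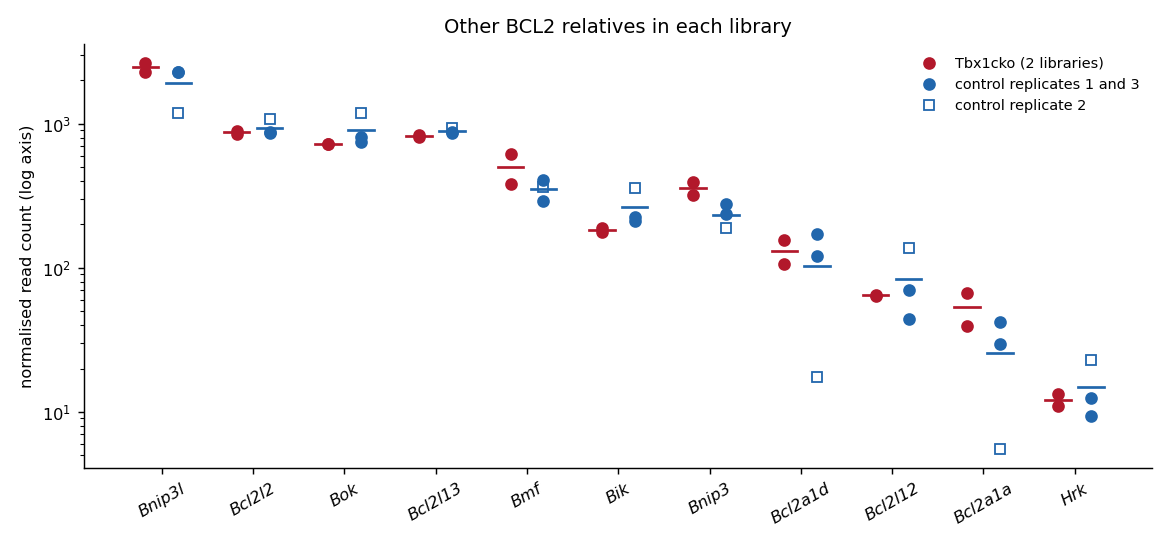
Normalised read counts (log axis) of the 11 tested relatives of the family in 2 Tbx1cko and 3 control libraries; bars are group means and the open square is control replicate 2. Bnip3l and Bnip3 lie higher and Bok, Bcl2l13 and Bik lower in both Tbx1cko libraries than in any control, and Bcl2a1d and Bcl2a1a are lowest in control replicate 2, at 17.5 and 5.52.

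Beyond the family, 84 genes on 7 lists, the relatives included, covered the rest of the pathway, and 78 were tested. In limma, 0 of 78 passed and 0 had an unadjusted p under 0.05, and edgeR and DESeq2 called 0. Without control replicate 2, 0 passed and 7 had an unadjusted p under 0.05, beside 7.46% of all tested genes. The groups did not overlap for 28 of the 78, 14 in each direction, against 28% of all genes.

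Downstream of the mitochondria, the list of apoptosome and caspase genes had 8 of 13 higher and 5 lower in Tbx1cko, with a median log2 difference of 0.02. Among its most abundant members were Apaf1, the scaffold of the apoptosome, and Cycs, which encodes cytochrome c. Cycs had 1249 and 1030 normalised counts in Tbx1cko and 1007, 855 and 1082 in control replicates 1 to 3, with overlap. Apaf1 had 1419 and 1661 in Tbx1cko and 1610, 820 and 1546 in control, so only control replicate 2 stood below Tbx1cko. The mitochondrial porin and carrier list had 5 of 6 higher and a median of 0.19, with Vdac2, an outer membrane channel that binds BAK, at 2604 and 2490 in Tbx1cko and 2373, 1616 and 2334 in control, without overlap. The inner membrane ADP/ATP carrier genes Slc25a5 and Slc25a4 overlapped between the groups, with log2 differences of 0.12 and -0.22, or 0.13 and -0.01 without control replicate 2.

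The list of inhibitors of apoptosis, some of which bind caspases or their activators, had 7 of 7 tested members higher in the point estimate, with a median log2 difference of 0.57. That median became 0.17 without control replicate 2, with 5 higher and 2 lower. After GC correction it was 0.14, and 0.06 with both. Xiap, the direct caspase inhibitor, had 4112 and 4396 normalised counts in Tbx1cko and 3516, 290 and 4059 in control replicates 1 to 3. Control replicate 2 was far below all others, and the transcript has a GC content of 36.8%. The log2 difference of Xiap was 1.40 (SE 1.19, limma adjusted p = 0.762) with all libraries and 0.17 without control replicate 2. Birc6 had 2314 and 2974 in Tbx1cko and 2634, 1867 and 2868 in control, and Birc3 had 1722 and 1763 in Tbx1cko and 2105, 1309 and 1819 in control, both with overlap.

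The death receptor list had 5 of 10 tested members on each side of 0 and a median of 0.00. Tnfrsf10b, the mouse receptor for the death ligand TRAIL, had 1354 and 1642 normalised counts in Tbx1cko and 2460, 1962 and 1881 in control replicates 1 to 3. Both Tbx1cko libraries lay below all controls, with a log2 difference of -0.48 (SE 0.218, limma adjusted p = 0.762) and of -0.53 without control replicate 2 (limma adjusted p = 0.380). Tnfrsf1a, a TNF receptor gene, had 5236 and 4961 in Tbx1cko and 5460, 7178 and 5141 in control. Cflar, which blocks caspase-8, had 3936 and 4445 in Tbx1cko and 3716, 2169 and 4117 in control, with overlap in each case.

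Genes of the p53 pathway, which can induce Bbc3 and Pmaip1, had 10 of 15 higher and 5 lower and a median of 0.29, or 0.15 without control replicate 2. Trp53 itself had 1803 and 1249 normalised counts in Tbx1cko and 1858, 2216 and 1804 in control replicates 1 to 3, and the cell cycle inhibitor gene Cdkn1a had 9324 and 9186 in Tbx1cko and 10674, 15415 and 9566 in control. Tbx1cko values of both were below all controls, for Trp53 by a very small margin between Tbx1cko replicate 1 and control replicate 3, and their log2 differences were -0.38 and -0.33, or -0.29 and -0.13 without control replicate 2. Mdm2, whose product degrades p53, had 2815 and 3318 in Tbx1cko and 2589, 1815 and 2923 in control. Upstream regulators of the family had 4 of 16 higher and 12 lower, with a median of -0.25, or -0.15 without control replicate 2. Jun, an AP-1 subunit gene, had 18894 and 20022 in Tbx1cko and 30592, 52090 and 22864 in control, without overlap, at a log2 difference of -0.77 and of -0.44 without control replicate 2. Jun is also on the list of immediate early and dissociation stress genes, of which 15 of 15 were lower in Tbx1cko by log2 difference. Pim3, a survival kinase gene, had 6548 and 9700 in Tbx1cko and 10678, 22777 and 8994 in control, and Atf4, a stress-response factor gene, had 7085 and 6577 in Tbx1cko and 7757, 9514 and 7404 in control.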

How the data were processed

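Polyadenylated RNA of 2 Tbx1cko and 3 control libraries was analysed, grouped by title. The deposited table holds, for each gene, a normalised signal in which the authors scaled counts by library size factors. Per the submitters' processing notes, STAR 2.5.2b, DESeq2 1.20.0 and R 3.5.1 were used on GRCm38. No read counter, annotation or strand setting is given in the labels. Whole reads were recovered for 100% of values, within 0.01 of a whole number.

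limma 3.58.1 (R 4.3.3), with a trended prior and genotype as the only term, was fitted to log2(normalised count + 1) of the 14339 genes with a mean of at least 10, 2-sided, with Benjamini-Hochberg adjustment over all of them and a threshold of 0.05. This scale understates changes of low genes. edgeR 4.0.16 and DESeq2 1.42.0 on recovered reads were alternatives, as were TMM scaling, other pseudocounts (0.5, 5), a stricter filter (50) or none, a loess correction for GC content (span 0.3), a replicate block and leaving out each library. Length, GC content and overlaps came from GENCODE M21 on GRCm38, which matched 16771 symbols, and upstream sequence came from RefSeq (GRCm38.p6). The members and lists were chosen with earlier results of these data known. Named beyond the members were all tested relatives, the 3 most abundant genes of each other pathway list (1 of them is not reported here) the 5 genes nearest to Bcl2l1, Tbx1, and, chosen after their values were seen, the markers Pf4, Pecam1 and Cdh5. Of the 12 marker lists, those not described with a member were lymphatic endothelial (summed normalised counts 8168 to 9568 in Tbx1cko and 11205 to 14484 in control), mural (38025 to 40271 in Tbx1cko and 45878 to 59027 in control), fibroblast (19509 to 39711 in Tbx1cko and 21312 to 37717 in control), cardiomyocyte (8888 to 9802 in Tbx1cko and 7190 to 13291 in control) and B cell (600 to 629 in Tbx1cko and 513 to 716 in control).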

Additional observations from a re-analysis of the deposited data

How the results depend on the processing

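The number of genes called by limma, 0, became 4 with DESeq2 and 3 with a replicate block, and leaving out each library in turn gave 0 to 3. The replicate block was only a check, since the labels state no pairing, and it changed no member's call. Deviations of same-numbered libraries from their group means had an r of -0.06 and -0.05 across genes. With 2 Tbx1cko libraries these deviations mirror each other, so the r values cannot decide whether libraries were paired. Of 135 values of the 9 tested members under 15 alternatives, 121 kept their direction and their side of the threshold, and none passed, with a lowest adjusted p of 0.435. The 15 alternatives reuse the same libraries and are not separate checks. A filter cannot change a limma log2 difference, and the block gave the same differences as leaving out control replicate 3. The untested Bcl2l1 difference kept its sign in all 15, which is no support, because the gene was picked for its values in these libraries. GC correction reversed the log2 difference of Bax (0.12), Bad (0.11) and Pmaip1 (-0.091). GC correction without control replicate 2 reversed Bax (0.11), Bad (0.16), Pmaip1 (-0.16) and Bid (0.024), and the block moved Bid to 0.00014. Leaving out each library in turn, the log2 difference ran from -0.13 to 0.34 for Bak1, from -0.064 to 0.95 for Pmaip1, from -0.18 to 0.16 for Bid and from -0.37 to 0.072 for Bad. The cause of these reversals was not tested. With a single Tbx1cko library left, it was assumed to vary like the controls. Each member had over 100 normalised counts in every library.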
